A study of Mus musculus with 18 samples.

Results

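Major urinary proteins (Mups) are small carrier proteins that mouse hepatocytes secrete in large amounts. The genes described are Mup3, Mup7, Mup11, Mup15, Mup17, Mup19, Mup20 and Mup21 in the deposited count table, 8 of its 28030 gene rows. The 8 symbols were chosen by name with measured values of these libraries known, but which values is not stated. A zone difference of a Mup gene was among the known results, so the comparison of zones is treated here as the one that selected them. If a change with fasting also played a part in the choice, the p-values of fasting below are too small. RNA sequencing of hepatocytes from both ends of the liver lobule gave 18 libraries in 6 groups of 3. The lobule is the repeating unit of the liver, and its pericentral cells lie around the central vein while its periportal cells lie near the incoming blood. All mice were wild-type C57BL/6J males aged 12 weeks on normal chow. The library titles name digitonin, a detergent used in isolating the hepatocytes of one zone at a time. They do not say whether cells of several mice were pooled. All groups, the fed ones included, had 3 days of training beforehand with 16 h overnight without food. Fed mice had eaten for 4 h with 20% sucrose in their water and were killed at clock hour 13. The fasted mice lost food and sucrose at that hour and were killed after 8 h, at clock hour 21, or after 24 h, at clock hour 13. The 8 h groups therefore differ from the fed groups in clock hour as well as in feeding, and the 24 h groups do not.

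Mups belong to the lipocalins, barrel-shaped proteins that hold small hydrophobic molecules. In male mice the liver secretes them into blood, the kidney passes them into urine, and there they carry and slowly release volatile pheromones. Their transcription in liver depends on the pulsed growth hormone of males, which acts through the growth hormone receptor and the factor STAT5. Mup20 encodes darcin, a Mup that is itself a male pheromone. Many Mup genes and pseudogenes sit side by side in 1 cluster and are nearly identical in sequence.

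All 8 genes lie on the minus strand of chromosome 4 in the mouse genome build GRCm38, the same assembly as the mm10 build named in the submitters' processing notes. The GENCODE annotation, release vM21, places Mup7 at chr4:60066469-60070475, Mup11 at chr4:60658466-60662411, Mup15 at chr4:61435790-61439743, Mup17 at chr4:61591929-61595871, Mup19 at chr4:61778324-61782269, Mup20 at chr4:62050234-62054158, Mup3 at chr4:62083476-62087342 and Mup21 at chr4:62147932-62150863, and calls each of them protein-coding. The stretch of 60 coding bases in which the 8 genes differ most is shown because it shows how little separates most of them. It comes from the GENCODE vM21 transcripts, read 5′ to 3′ on the coding strand. Capitals mark a base that differs from the one most of the 8 genes carry, and 25 of the 60 positions vary.
Mup19: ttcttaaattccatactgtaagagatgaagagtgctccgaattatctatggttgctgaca
Mup15: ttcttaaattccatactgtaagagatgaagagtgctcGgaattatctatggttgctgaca
Mup17: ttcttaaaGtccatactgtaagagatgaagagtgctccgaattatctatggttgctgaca
Mup11: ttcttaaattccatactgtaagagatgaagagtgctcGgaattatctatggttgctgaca
Mup7: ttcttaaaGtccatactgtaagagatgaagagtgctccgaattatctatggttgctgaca
Mup20: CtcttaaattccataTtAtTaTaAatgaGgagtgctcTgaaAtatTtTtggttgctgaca
Mup3: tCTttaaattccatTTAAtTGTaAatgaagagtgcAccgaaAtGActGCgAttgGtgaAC
Mup21: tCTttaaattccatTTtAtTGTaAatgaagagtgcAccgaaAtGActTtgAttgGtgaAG

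In this stretch Mup19 had 0 bases unlike the majority, and Mup15, Mup17, Mup11 and Mup7 had 1 each. Mup20 had 11, Mup21 had 18 and Mup3 had 20. Over the whole coding sequence the first 5 genes were 98.5% to 99.6% identical to each other. Mup20 was 90.6% to 91.5% identical to those 5, and Mup3 was 85.1% to 86.0% identical to them. Mup3 and Mup21 were closer to each other, at 96.3%.

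Reads are shared out among genes on the basis of such sequences, so the 5 near-identical genes (Mup19, Mup15, Mup17, Mup11 and Mup7) are uncertain one by one. Each transcript was split into overlapping words of 31 bases, and 141767 transcripts were searched for them. Of the words in Mup3, 69.9% occurred in no other gene, and for Mup21 the share was 66.2%. The share was 35.5% for Mup20, 16.7% for Mup11, 13.8% for Mup17 and 9.98% for Mup7. It was 0 of 895 words for Mup15 and 0 of 1034 words for Mup19. None of the 8 genes held a whole-number count in any of the 18 libraries (tolerance 1e-09), while 44.0% of all values above 0 in the table were whole. Why the members' values are not whole was not tested. Because of the shared sequence, the summed level of the 8 genes, and that of the 5 near-identical genes, stand beside each single gene below.

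**Figure D1:**
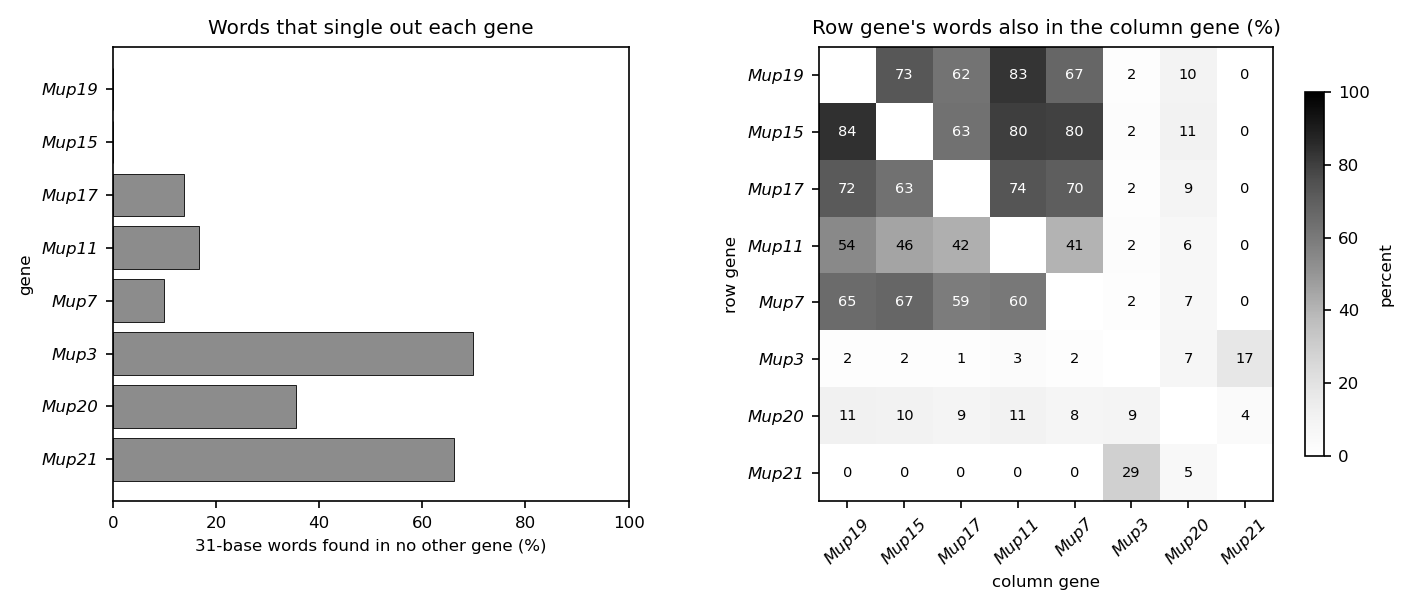
The bars give, for each of the 8 genes, the percent of its 31-base words found in no other gene, and the grid gives the percent of the row gene's words that the column gene also holds. Mup15 and Mup19 have no word of their own. Mup3 and Mup21 share few words with the remaining genes, but 16.9% of the words of Mup3 and 28.6% of those of Mup21 are common to both.

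Each library held 18359911 to 26384358 estimated counts, and 12477 genes, including all 8 Mups, passed the filter on low counts. The zone labels were checked against 5 pericentral markers (Cyp2e1, Cyp1a2, Oat, Glul, Slc1a2). As counts scaled to 1000000 per library (CPM), their sum was 9434 to 18569.9 over the 9 libraries labelled pericentral and 421 to 2049 over the 9 labelled periportal. Pericentral replicate 2 at 24 h stood apart, with 111 CPM of Glul and 8.82 CPM of Slc1a2, where the other 8 pericentral libraries had at least 552 and 95.8 CPM. Its Cyp1a2 and Oat, at 202 and 257 CPM, were also the lowest of the 9, against at least 387 and 561 CPM. The 5 periportal markers (Cyp2f2, Hal, Gls2, Sds, Pck1) came closer between zones with fasting. Their sum in pericentral libraries was 353 to 613 CPM fed, 2425 to 2822 CPM after 8 h and 5631 to 6637 CPM after 24 h. In periportal libraries it was 4061 to 5925 CPM fed, 6255 to 11005 CPM after 8 h and 9777 to 10493 CPM after 24 h. Pck1, a gluconeogenic enzyme known to be induced by fasting, made up 4791 to 4844 CPM of the pericentral sum at 24 h. The zones did not overlap within a state, but pericentral libraries at 24 h were within or above the fed periportal range. The 23 markers of other liver cells (cholangiocytes, stellate and endothelial cells, leukocytes) summed to 26.9 to 109 CPM in a library, and 6 of them stayed under 1 CPM in all 18. The labels do not say that replicates are separate animals, so p-values measure the spread between these libraries. In RNA from pooled cells, fewer cells expressing a gene and less RNA per cell cannot be told apart.

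The 8 genes together made up 1.99% to 6.45% of all counts of a library. Their summed level in pericentral cells was 27447, 46716 and 47126 CPM in the fed state, 50113, 61150.4 and 37591 CPM after 8 h and 49136, 19407 and 19650.5 CPM after 24 h. In periportal cells it was 30039, 21275 and 19185 CPM fed, 26514, 37024 and 34237 CPM after 8 h and 33664, 24419 and 48643 CPM after 24 h. In CPM the zones overlapped in the fed state and after 24 h. They did not overlap after 8 h, where the lowest pericentral library exceeded the highest periportal one by a narrow margin. Summed over all genes with a Mup symbol, the zones overlapped after 8 h too. The lowest pericentral library then had 41685 CPM and the highest periportal one 44235 CPM. Overlap of the sum of the 8 genes also depends on the scaling, because CPM use TMM factors. As a plain percent of library counts, the fed zones were apart, with pericentral libraries from 3.03% and periportal ones up to 2.92%. After 8 h these limits were 4.05% and 3.17%, and after 24 h the zones overlapped. The log2 ratio of the periportal to the pericentral mean of the summed CPM was -0.78 fed, -0.61 after 8 h and 0.28 after 24 h, beside a pooled SD of 0.47 between libraries of a group. At 24 h the pericentral group was split, with replicate 1 at the level of the 8 h libraries and replicates 2 and 3 below every fed pericentral library. Without pericentral replicate 1 the log2 ratio at 24 h was 0.87, and without periportal replicate 3 it was -0.018. Without pericentral replicate 2, the library that stood apart in its markers, it was 0.049.

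The zones differed in which genes made up the sum. The 5 near-identical genes held 59.3% to 86.7% of the sum in the 9 pericentral libraries and 15.6% to 57.3% in the 9 periportal ones. Mup3 and Mup20 together held 13.2% to 40.4% of the pericentral sum and 42.6% to 83.9% of the periportal sum. Neither share overlapped between the zones. These shares are not separate results, because only Mup21 lies outside them. It held up to 0.323% of the sum in pericentral and up to 0.467% in periportal libraries. Mup19 alone averaged 42.1% ± 3.52 (SD, n = 3) of the sum in fed pericentral cells and 1.01% ± 0.963 (SD, n = 3) in fed periportal cells.

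**Figure D2:**
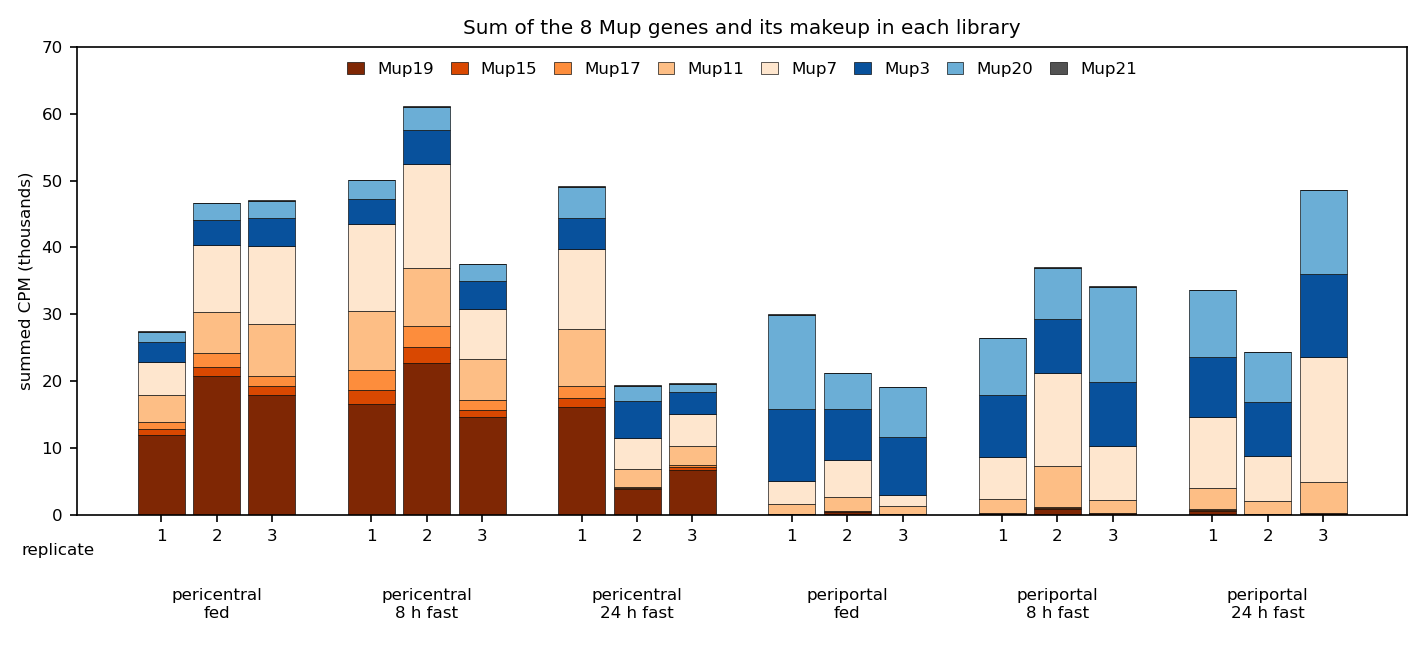
Each bar is 1 library, its height is the summed level of the 8 Mup genes in CPM, and its colours are the genes. The heights of the zones overlap in the fed state and after 24 h, and orange shades (the 5 near-identical genes) fill most of the pericentral bars and blue shades (Mup3 and Mup20) most of the fed periportal bars.

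Per kilobase of the longest annotated transcript, the order of the genes by level differed between zones. Averaged over 9 libraries, pericentral cells had 15731 CPM per kilobase of Mup19, 8996 of Mup7, 6696 of Mup11, 4244 of Mup3, 2823 of Mup20, 1746 of Mup17, 1315 of Mup15 and 119 of Mup21. Periportal cells had 10464 CPM per kilobase of Mup20, 9417 of Mup3, 8070.3 of Mup7, 2952 of Mup11, 344 of Mup19, 132 of Mup21, 48.8 of Mup17 and 46.1 of Mup15. Mup19 was thus the highest in pericentral and the fifth in periportal cells, and Mup20 was the fifth and the highest. Neighbours in these orders overlapped in range, except Mup15 and Mup21 in pericentral cells and Mup11 and Mup19 in periportal cells.

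Zone differences are given as descriptions without a test, because that comparison is treated as the one that selected the genes. Mup19 was the pericentral gene with the largest difference. Its level in pericentral cells was 11991, 20769 and 17911 CPM fed, 16607, 22681 and 14569 CPM after 8 h and 16066, 3877 and 6775 CPM after 24 h. In periportal cells it was 133, 451 and 87.7 CPM fed, 192, 869 and 197 CPM after 8 h and 643, 129 and 171 CPM after 24 h. The lowest of the 9 pericentral libraries lay above the highest of the 9 periportal ones. The log2 fold change of periportal over pericentral cells was -6.24 (SE 0.99) fed, -5.42 (SE 0.95) after 8 h and -4.83 (SE 0.93) after 24 h.

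Mup15 and Mup17, the other near-identical genes with a steep pericentral pattern, were lower in level but alike in shape. Mup15 in pericentral cells measured 806, 1409 and 1383 CPM fed, 2093, 2358 and 1068 CPM after 8 h and 1356, 152 and 324 CPM after 24 h. In periportal cells Mup15 measured 15.9, 49.3 and 8.52 CPM fed, 19.4, 164 and 11.4 CPM after 8 h and 75.4, 13.8 and 26.3 CPM after 24 h. Within each state the zones did not overlap, but periportal replicate 2 at 8 h, at 164 CPM, was above pericentral replicate 2 at 24 h, at 152 CPM. Mup17 measured 1035, 2097 and 1541 CPM fed, 3012, 3164 and 1485 CPM after 8 h and 1781, 143 and 311 CPM after 24 h in pericentral cells. In periportal cells Mup17 measured 25.0, 58.7 and 15.2 CPM fed, 21.4, 143 and 18.9 CPM after 8 h and 81.7, 17.1 and 25.7 CPM after 24 h. The same 2 libraries brought its zones into contact, both at 143 CPM. The log2 fold changes were -5.61 (SE 1.24), -4.82 (SE 1.19) and -3.99 (SE 1.15) for Mup15 in the fed, 8 h and 24 h states. For Mup17 they were -5.56 (SE 1.17), -5.38 (SE 1.16) and -4.17 (SE 1.10). Without periportal replicate 2 the 8 h values were -6.90 for Mup15 and -6.99 for Mup17, and without pericentral replicate 1 the 24 h values were -2.63 and -2.46.

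Mup19, Mup15 and Mup17 share reads, and their extreme libraries coincided. Among periportal libraries the highest of each state was replicate 2 fed, replicate 2 at 8 h and replicate 1 at 24 h for all 3 genes. The summed pericentral markers in these libraries were 1510.3, 973 and 2049 CPM, the highest of their group in the fed and 24 h states but not at 8 h, where replicate 1 had 1094 CPM. Among pericentral libraries at 24 h, replicates 2 and 3 were low in all 3 genes, while their summed pericentral markers were 10845 and 18569.9 CPM, against 15669 CPM in replicate 1. Cyp2e1 made up 10266 CPM of the sum in replicate 2, and the other 4 markers were at their pericentral lowest there, but not in replicate 3. The part of zone purity in these values was not tested. Without pericentral replicate 2 the 24 h zone values were -5.19 for Mup19, -4.45 for Mup15 and -4.66 for Mup17.

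Mup11 and Mup7, the remaining near-identical genes, differed less between zones. Mup11 in pericentral cells measured 4064, 6108 and 7782 CPM fed, 8838, 8756 and 6218 CPM after 8 h and 8638, 2726 and 2918 CPM after 24 h. In periportal cells it measured 1382, 2082 and 1220.0 CPM fed, 2179, 6074 and 2018 CPM after 8 h and 3205, 1895 and 4652 CPM after 24 h. Its zones were apart in the fed state and after 8 h, with the pericentral cells higher, and overlapped after 24 h. The log2 fold change was -1.94 (SE 0.52), -1.21 (SE 0.51) and -0.55 (SE 0.51) in the 3 states, and the last of these was 0.20 without pericentral replicate 1. Mup7 in pericentral cells measured 4903, 9979 and 11556 CPM fed, 12892, 15545 and 7456 CPM after 8 h and 11921, 4602 and 4781 CPM after 24 h. In periportal cells it measured 3478, 5525 and 1663 CPM fed, 6214, 13949 and 8020.4 CPM after 8 h and 10697, 6728 and 18756 CPM after 24 h. The zones of Mup7 overlapped in every state, and its log2 fold change went from -1.31 (SE 0.54) fed through -0.35 (SE 0.53) after 8 h to 0.76 (SE 0.54) after 24 h.

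Mup3 and Mup20 were the periportal genes. Mup3 in pericentral cells measured 3057, 3752 and 4245 CPM fed, 3852, 5053 and 4193 CPM after 8 h and 4684, 5484 and 3265 CPM after 24 h. In periportal cells it measured 10734, 7669 and 8598 CPM fed, 9333, 8102 and 9532 CPM after 8 h and 8940.5, 8144 and 12348 CPM after 24 h. Every periportal library was above every pericentral one, and the log2 fold change was 1.29 (SE 0.21), 1.04 (SE 0.21) and 1.13 (SE 0.21) in the fed, 8 h and 24 h states. Mup20, the darcin gene, measured 1524, 2513 and 2604 CPM fed, 2751, 3489.8 and 2517 CPM after 8 h and 4595, 2361 and 1222 CPM after 24 h in pericentral cells. In periportal cells it measured 14130.1, 5388 and 7506 CPM fed, 8442, 7686 and 14295 CPM after 8 h and 9928, 7467 and 12553 CPM after 24 h. Its zones did not overlap either, with log2 fold changes of 2.02 (SE 0.45), 1.80 (SE 0.45) and 1.87 (SE 0.45). The ratio of Mup20 to Mup3 was 0.374 to 0.981 in pericentral and 0.703 to 1.50 in periportal libraries.

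Mup21, the closest relative of Mup3 in sequence among the 8, had no clear zone. It had the lowest mean level of the 8 in pericentral cells, while in periportal cells its mean exceeded those of Mup15 and Mup17. Its 9 pericentral libraries ranged from 54.2 to 104 CPM around a median of 84.0 CPM, and its 9 periportal libraries from 25.0 to 145 CPM around a median of 93.3 CPM. The zones overlapped in every state, and the log2 fold changes of 0.10 (SE 0.54), 0.21 (SE 0.54) and 0.12 (SE 0.54) were all smaller than their SE. It changed sign in 3, 1 and 5 of 27 alternative analyses in the fed, 8 h and 24 h states.

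**Figure D3:**
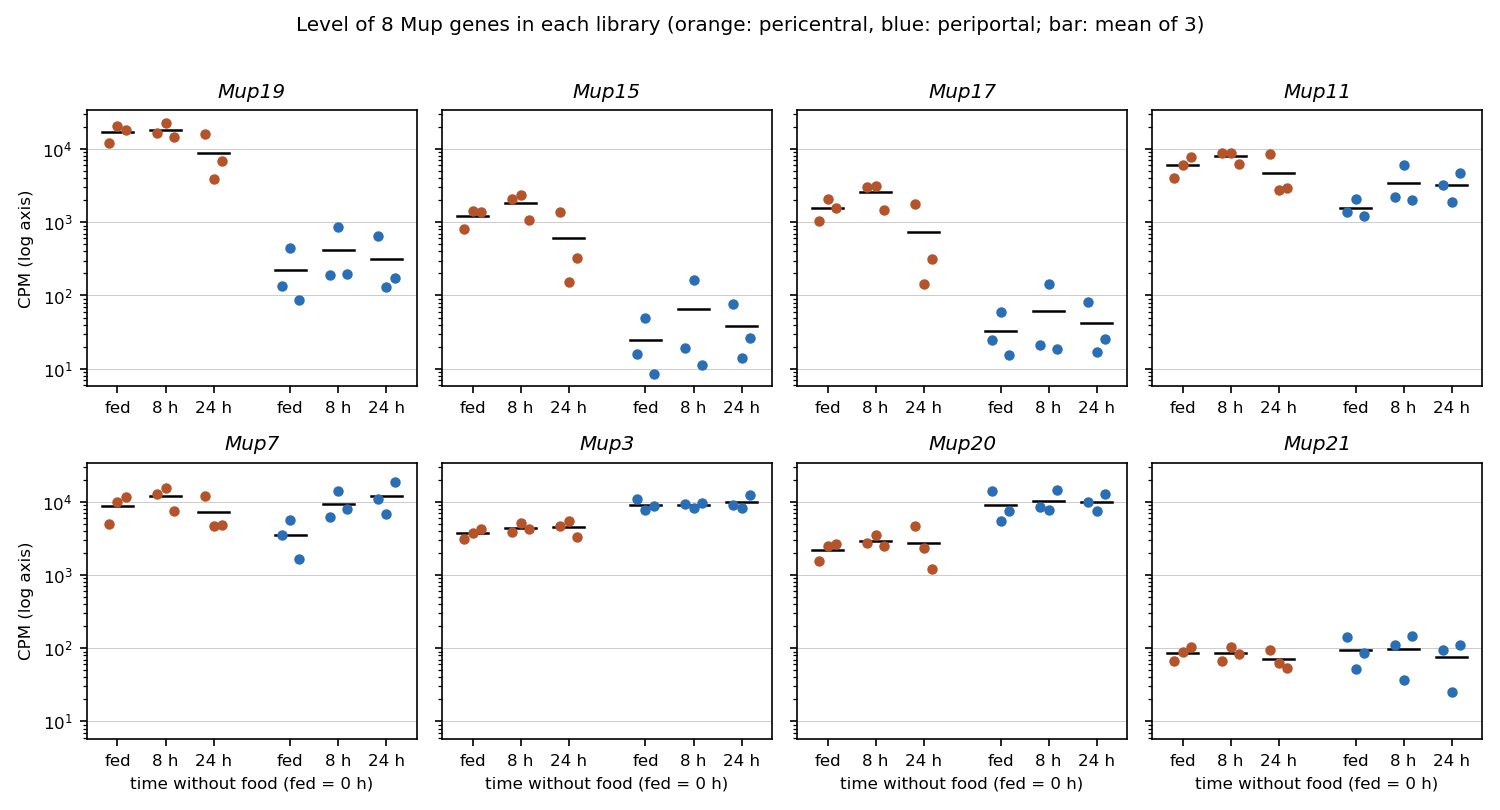
Each point is 1 library and each bar the mean of 3, on a log axis of CPM, with pericentral libraries in orange and periportal libraries in blue. Mup19, Mup15 and Mup17 sit far higher in orange, Mup3 and Mup20 sit higher in blue, and Mup7 and Mup21 overlap in every state.

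Counted over all states, 3 of the 8 genes (Mup19, Mup3 and Mup20) had 9 pericentral libraries apart from 9 periportal ones, where 2.59% of the 12477 genes tested did. Within single states the zones did not overlap for 6 of 8 genes fed, 6 after 8 h and 5 after 24 h. Of all genes tested, 28.3%, 23.9% and 22.1% had zones that did not overlap in these states. These shares stand as background only, because the comparison of zones is treated as used in choosing the genes.

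**Figure D4:**
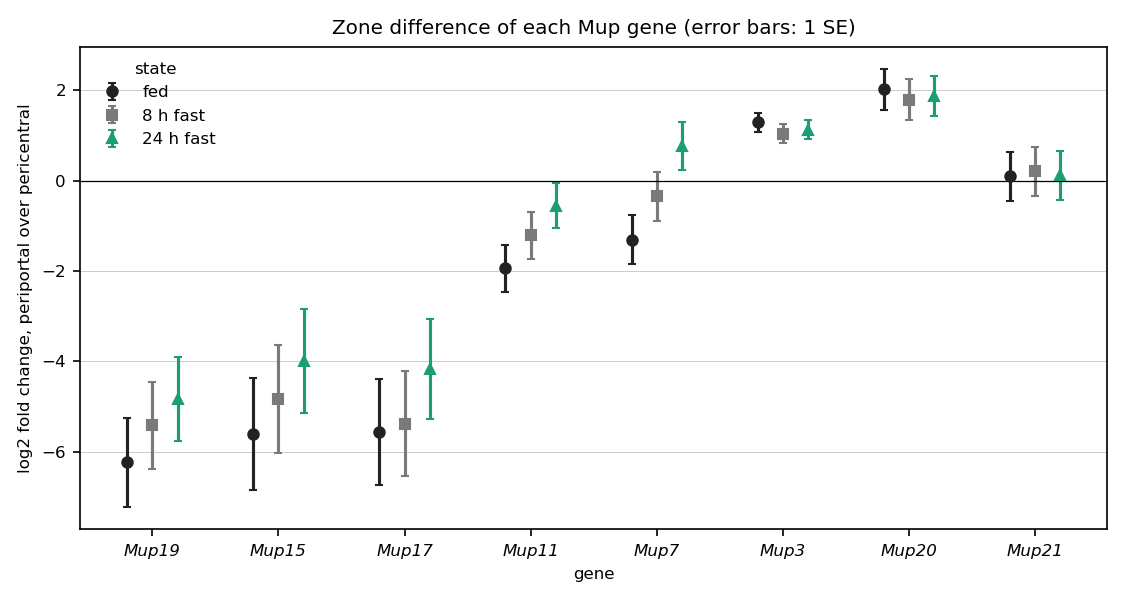
Points give the log2 fold change of periportal over pericentral cells for each gene in the 3 states, with bars of 1 SE. Mup19, Mup15 and Mup17 lie between -6.24 and -3.99, Mup3 and Mup20 between 1.04 and 2.02, and Mup7 goes from -1.31 to 0.76.

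The sequences just upstream of the genes are shown because an A-rich stretch there differs in length between the near-identical genes and Mup3. Promoters of 7 of the 8 genes were taken from RefSeq on GRCm38.p6, all on the minus strand and 300 bases long, and Mup20 was not in that table. Each line runs 5′ to 3′ from a shared block to the base just before the GENCODE gene model. Capitals mark the stretch between that block and a second one. The blocks and the stretch were chosen after the sequences were seen.
Mup19 (chr4:61782270-61782327): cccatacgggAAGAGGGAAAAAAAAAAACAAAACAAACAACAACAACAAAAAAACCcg
Mup15 (chr4:61439744-61439801): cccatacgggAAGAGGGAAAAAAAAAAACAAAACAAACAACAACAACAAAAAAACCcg
Mup17 (chr4:61595872-61595931): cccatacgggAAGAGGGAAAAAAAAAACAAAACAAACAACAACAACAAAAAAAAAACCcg
Mup11 (chr4:60662412-60662471): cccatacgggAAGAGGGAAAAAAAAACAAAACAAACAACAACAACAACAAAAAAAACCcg
Mup3 (chr4:62087343-62087368): cccatacgggAAGAAAAAAAAGTCca
Mup21 (chr4:62150864-62150886): cccatatgggGAAAAAAAGCCca

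The stretch was 46 bases long in Mup19 and Mup15 and 48 bases in Mup17 and Mup11, and the letters shown for Mup19 and Mup15 were the same. It was 14 bases in Mup3 and 11 bases in Mup21. The search required both blocks and, shortly after the second, TATATAA, the core of a TATA box. The window listed for Mup7 starts at another place and did not match the whole pattern. The whole pattern occurred in 11 of 32851 promoters, of which 0 belonged to a gene outside the Mup family. Mup11 and Mup17 had stretches of the same length and fed zone values of -1.94 (SE 0.52) and -5.56 (SE 1.17). Any relation between the stretch and the zone values was not tested. Each of these 6 promoters carried TATATAA 16 bases after the stretch. Its presence was fixed by the search and cannot be set against the 3.24% of all promoters that held it on either strand. The bases of TATATAA are not printed because the GENCODE gene model, which starts upstream of the RefSeq one, includes them. TTCNNNGAA, the letters of a STAT5 site, matched 0 of the 7 and 8.30% of all promoters. CTTTGAT, bound by the TCF factors of Wnt signalling, matched 0 of the 7 and 3.73% of all promoters. TTGCNNAA, a form of C/EBP site, matched 0 of the 7 and 10.8% of all promoters. Both strands were searched, and the windows do not reach enhancers further away.

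Fasting was tested in the fit of all 12477 genes by the quasi-likelihood test of edgeR with Benjamini-Hochberg adjustment. In pericentral cells 0 of the 8 genes passed an adjusted p of 0.05 after 8 h, where 13.8% of all genes did. After 24 h the count was 0 of 8 against 21.8% of all genes, and from 8 h to 24 h it was 0 of 8 against 9.71%. At an unadjusted p under 0.05 the count was 0 of 8 in each of these comparisons, where 26.7%, 34.1% and 24.2% of all genes passed. DESeq2 called 0 of 8 in each, against 16.5%, 24.1% and 12.7% of all genes, and limma-voom 0 of 8, against 14.3%, 22.4% and 9.43%. Comparisons with the fed group share the fed libraries.

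The values in pericentral cells were spread widely between replicates. After 8 h against fed the log2 fold changes ran from -0.04 to 0.71 with a median of 0.40, and 7 of 8 were above 0. After 24 h they ran from -1.06 to 0.30 with a median of -0.32, where the median of all genes tested was 0.01. The 24 h values were -1.06 (SE 0.97) for Mup17, -0.97 (SE 1.03) for Mup15 and -0.92 (SE 0.80) for Mup19, each close in size to its SE. Mup3, at 0.28 (SE 0.21), and Mup20, at 0.30 (SE 0.43), lay above 0. The summed level changed by -0.46 on the log2 scale from fed to 24 h and by -0.76 from 8 h to 24 h. Without replicate 1 at 24 h these became -1.05 and -1.35, and with all 3 libraries the groups overlapped. Without replicate 2 they became -0.23 and -0.53.

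In periportal cells 0 of 8 genes passed after 8 h, where 14.4% of all genes did, and 2 of 8 (Mup7 and Mup11) had an unadjusted p under 0.05, a share close to the 27.6% of all genes. After 24 h 1 of 8 passed, where 19.6% of all genes did, and from 8 h to 24 h 0 of 8 passed, where 7.46% did. At an unadjusted p under 0.05 the counts for these last comparisons were 1 and 0 of 8, where 32.1% and 22.3% of all genes passed. DESeq2 and limma-voom gave the same counts of 0, 1 and 0 at an adjusted p under 0.05. Of all genes, 17.2%, 22% and 11% passed by DESeq2 and 14.2%, 19.2% and 6.95% by limma-voom. The gene that rose was Mup7, with a log2 fold change of 1.76 (SE 0.55) and an adjusted p of 0.0372 by edgeR's quasi-likelihood test. Its 3 libraries at 24 h, from 6728 to 18756 CPM, were all above the 3 fed ones, from 1663 to 5525 CPM. After 8 h Mup7 stood at 1.40 (SE 0.54) with an adjusted p of 0.105, also without overlap. The call at 24 h was lost without fed replicate 1 (adjusted p = 0.109) or 3 (0.121), and without 24 h replicate 1 (0.0571) or 3 (0.157). Mup7 is also a gene with only 9.98% of its 31-base words to itself.

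The other periportal values did not pass the test. Mup11 stood at 1.13 (SE 0.51) after 8 h and 1.06 (SE 0.51) after 24 h, with adjusted p-values of 0.166 and 0.171. The 5 near-identical genes summed to 5034, 8165 and 2995 CPM fed, 8626, 21199 and 10266 CPM after 8 h and 14703, 8783 and 23631 CPM after 24 h. Every fasted periportal library was above every fed one in this sum, by log2 ratios of means of 1.31 and 1.54, given without a test. Mup7 and Mup11 were the bulk of this sum in every periportal library. Mup3 and Mup20 were nearly level, with log2 fold changes of 0.12 (SE 0.21) and 0.15 (SE 0.43) after 24 h.

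**Figure D5:**
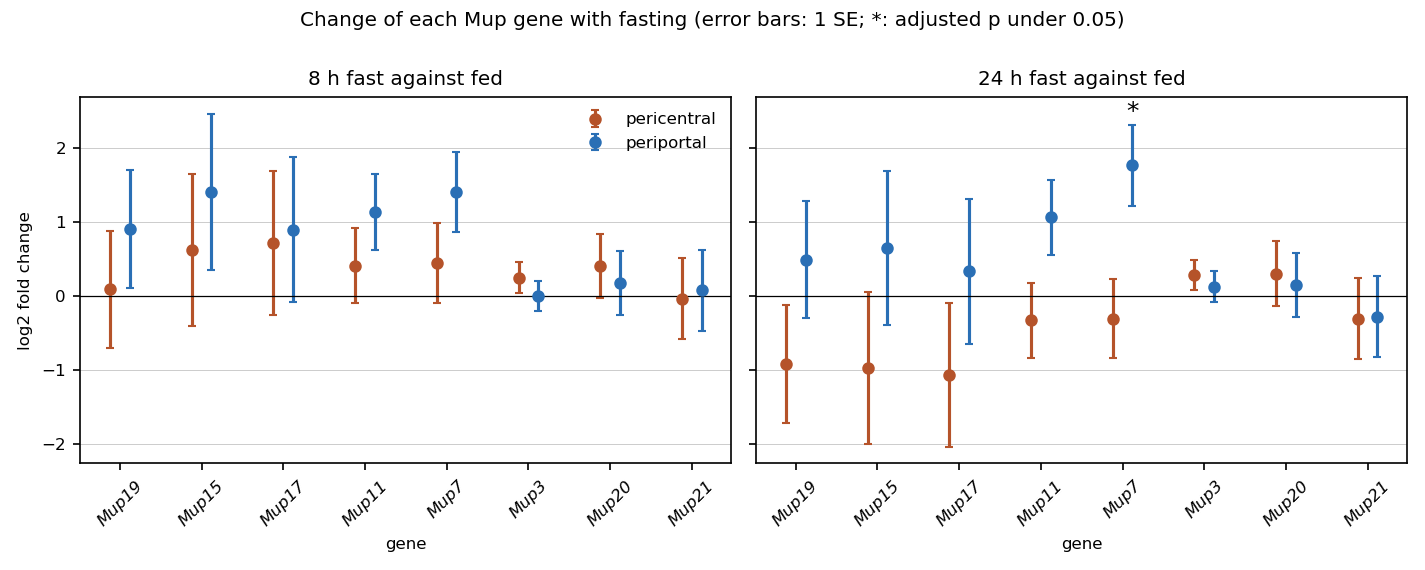
Points give the log2 fold change of each gene after 8 h (left) and 24 h (right) against fed, with bars of 1 SE, pericentral in orange and periportal in blue. The 24 h values of Mup19, Mup15, Mup17, Mup11 and Mup7 lie below 0 in orange and above 0 in blue, and only periportal Mup7 at 1.76 carries the mark of an adjusted p under 0.05.

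The change with fasting in periportal cells minus that in pericentral cells is the difference of 2 zone values, so it is given without a test. From fed to 24 h it was 2.07 (SE 0.76) for Mup7 and 1.62 (SE 1.46) for Mup15. Mup19, Mup11 and Mup17 had values of 1.41 (SE 1.12), 1.39 (SE 0.72) and 1.39 (SE 1.38). Mup3, Mup20 and Mup21 lay between -0.16 and 0.03. No test is given of whether the rise of Mup7 in periportal cells differs from its change in pericentral cells.

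Another 40 rows of the table carry a Mup symbol, of which 27 are pseudogenes. The 8 genes held 85.3% to 90.3% of all Mup counts in pericentral libraries and 83.7% to 88.7% in periportal ones. Of the 40 rows, 20 passed the filter, 7 exceeded a mean of 100 CPM and 26 stayed under 1 CPM. Mup14 was the most abundant, with a mean of 1743 CPM in pericentral and 2598 CPM in periportal cells, and its zones overlapped. Mup9, chosen after its values were seen, was the only 1 of those 7 whose zones did not overlap, with means of 196 CPM in pericentral and 9.55 CPM in periportal cells.

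Genes of growth hormone signalling were followed because Mup transcription depends on that hormone. Of 18 genes in the list 17 were tested. In periportal cells 4 rose and 2 fell after 8 h, and 3 rose and 4 fell after 24 h, with list medians of 0.04 and 0.17. That is 6 and 7 of 17, where 14.4% and 19.6% of all genes passed. In pericentral cells 5 rose and 1 fell after 8 h, and 5 rose and 0 fell after 24 h, with medians of 0.13 and 0.43. That is 6 and 5 of 17, where 13.8% and 21.8% of all genes passed. The medians of all genes tested lay between -0.00 and 0.01 in these comparisons. Ghr, the hormone's receptor, fell in periportal cells by edgeR's test, with log2 fold changes of -0.41 (SE 0.11, adjusted p = 0.0222) after 8 h and -0.39 (SE 0.11, adjusted p = 0.0217) after 24 h. Stat5b, the main STAT5 gene of liver, rose after 8 h, by 0.78 (SE 0.15, adjusted p = 0.00208) in pericentral and 0.75 (SE 0.15, adjusted p = 0.00311) in periportal cells.

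Socs2, a feedback inhibitor that STAT5 induces, went from 5.05 ± 0.730 CPM fed to 12.9 ± 1.93 CPM after 24 h in periportal cells and from 7.73 ± 3.10 to 26.5 ± 7.97 CPM in pericentral cells (SD, n = 3). Its log2 fold changes at 24 h were 1.34 (SE 0.34, adjusted p = 0.0116) and 1.77 (SE 0.33, adjusted p = 0.00141). After 8 h they were 1.30 (SE 0.34, adjusted p = 0.0172) and 1.09 (SE 0.33, adjusted p = 0.0366). Cish, another such inhibitor, had a log2 fold change of -2.61 (SE 0.81, adjusted p = 0.0392) in periportal cells after 24 h. Igf1, the growth factor that growth hormone induces in liver, rose by 0.73 (SE 0.15, adjusted p = 0.0028) in pericentral cells after 24 h. Igfals, another gene of the list, fell after 8 h by edgeR's test in both zones. Its log2 fold changes were -0.91 (SE 0.19, adjusted p = 0.00515) in periportal and -0.71 (SE 0.19, adjusted p = 0.0225) in pericentral cells. After 24 h its periportal value was -1.01 (SE 0.19, adjusted p = 0.00183). The other calls against fed were Irs2 and Igfbp1, genes known to be induced in fasted liver, which rose in all 4 comparisons, Stat3 and Ptpn6, which rose in pericentral cells after 8 h and 24 h respectively, and Onecut1, which fell in periportal cells after 24 h.

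Among 19 male-biased liver genes that depend on growth hormone, 18 were tested. After 24 h 0 rose and 3 fell in periportal cells (Nudt7, Keg1 and Cyp2u1), and 0 rose and 2 fell in pericentral cells (Nudt7 and Keg1), with list medians of -0.02 and -0.37. Of all genes, 19.6% and 21.8% passed in these comparisons. After 8 h Elovl3, a fatty acid elongase known to follow the clock, rose and Nudt7, a peroxisomal hydrolase, fell in both zones, 2 of 18 in each, where 14.4% of all genes passed in periportal and 13.8% in pericentral cells. Of 16 transcription factors tied to Mup or sex-biased transcription 15 were tested. After 24 h 4 rose and 4 fell in periportal cells, with a median of -0.12, and 4 rose and 2 fell in pericentral cells, with a median of -0.05. That is 8 and 6 of 15, beside the same 19.6% and 21.8% of all genes. Hnf4a, Ppargc1a, Cux2 and Cebpb rose and Srebf1 and Foxa2 fell in both zones, and Nr3c1 and Cebpa fell in periportal cells. After 8 h Srebf1 fell in both zones and Nr3c1 in periportal cells. Cux2, known for its female bias in mouse liver, rose after 24 h in both zones by edgeR's test. The log2 fold changes were 2.17 (SE 0.42, adjusted p = 0.0019) in periportal and 1.51 (SE 0.41, adjusted p = 0.0156) in pericentral cells. Cebpa, a liver-enriched activator, had a log2 fold change of -0.90 (SE 0.23, adjusted p = 0.0103) in periportal cells after 24 h. Of 13 other lipocalins 10 were tested, and the only call against fed was Ptgds, at 2.08 (SE 0.57, adjusted p = 0.0208) in periportal cells after 8 h.

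The genes outside the family most like the summed Mup level were searched among 6582 genes over the 18 libraries, as a description. The highest Pearson correlations of log2 CPM were 0.851 for Dpp7, a lysosomal peptidase, and 0.847 for Cyp7b1, an oxysterol hydroxylase with male-biased expression. C6 (complement), Pfkfb1 (a regulator of glycolysis) and F11 (a clotting factor) followed with 0.804, 0.800 and 0.787. For Cyp7b1 the correlation was 0.868 over the 9 pericentral and 0.842 over the 9 periportal libraries. It is also on the list of male-biased genes, and its level was 172 ± 61.6 CPM in pericentral and 118 ± 46.4 CPM in periportal libraries (SD, n = 9). Genes chosen over all libraries as most like Mup20 were Itih5, Gpc1 and Cadps2, with within-zone correlations of 0.744, 0.362 and 0.677 in pericentral and 0.673, 0.838 and 0.710 in periportal cells. Those most like Mup3 were Gpc1, Cyp2f2 and Ftcd, at 0.737, 0.670 and 0.730 in pericentral but 0.676, 0.249 and -0.05 in periportal cells. Those most like Mup21 were Kidins220, Hhex and Nat8, with lower values of 0.637, 0.613 and 0.612 over all libraries. Such libraries share depth, scaling and zone purity.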

How the data were processed

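Total RNA of isolated hepatocytes was sequenced in 18 libraries, and the authors deposited estimated counts for 28030 genes in 1 table. They used kallisto 0.46.0 and mm10, per the submitters' processing notes. The annotation, the use of strand and the read length are not given in the sources used here. Every column name equalled the description of 1 library, and 0 columns were left out. Symbols were matched to 27566 of 28030 gene identifiers.

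Estimated counts were rounded to whole numbers and tested with edgeR 4.0.16 (robust quasi-likelihood fit, TMM, filterByExpr on the 6 groups) in R 4.3.3, with 1 coefficient per group, no covariates and Benjamini-Hochberg adjustment over 12477 genes. An adjusted p under 0.05 was called. CPM use TMM factors, and SE is the fold change divided by the square root of F. The method was tested on simulated data. Every simulated gene had the same spread beyond sampling noise, so that test does not cover members with a wide spread between replicates. Pairs of replicates among the deposited libraries differed by more than sampling noise. Coding sequences were aligned with MAFFT 7.526 and Biopython 1.88.

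Alternatives were DESeq2 1.42.0 (its size factors and its test), limma-voom 3.58.1, other filters, only the groups compared, a replicate block, scale factors from all but the 20 most abundant genes or all but Mup genes, and leaving out each library. The labels give no batch. A test of the difference between zones in the change with fasting had been planned, and its values are given without p because the zone comparison is treated as used.

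The members and lists were chosen with earlier results of these data known. The named genes are the 8 members, other Mup rows by count and sum, list members by count with those called named, and, at a mean of at least 10 CPM, the 5 genes most correlated with the sum and the 3 most correlated with Mup20, Mup3 and Mup21 (log2 CPM, prior count 2).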

Additional observations from a re-analysis of the deposited data

How the results depend on the processing

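The count of members called was the same under every alternative in 5 of the 6 fasting comparisons. In periportal cells at 24 h against fed it was 0 with no filter beyond 1 count and with only the groups of the comparison, and 0 to 1 when single libraries were left out. The Mup7 call behind it held in 21 of 27 alternatives, with adjusted p from 0.0108 to 0.157. Leaving out single libraries, the log2 difference of the sum ranged from -0.018 to 0.87 between zones at 24 h. In pericentral cells it ranged from -1.05 to -0.23 for 24 h against fed and from -1.35 to -0.53 for 24 h against 8 h. Signs of the zone values held for Mup3, Mup15, Mup17, Mup19 and Mup20 in all 3 states under all 27 alternatives. They also held for Mup7, negative fed and at 8 h and positive at 24 h, although its zones overlapped in every state. With 3 libraries a group, values of more than 1 SE also failed the test, such as Mup11 in periportal cells at 8 h (1.13, SE 0.51, adjusted p = 0.166). Whether depth limits these values was not tested.

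No label says that equal replicate numbers mark a shared animal, and the pairing rule (every pair above 0.1) was not met. Between zones of 1 state 3 of 9 pairs with the same number correlated above 0.1 (median 0.031), against 0 of 18 pairs with different numbers (median -0.040), and 9 of 18 libraries correlated best with their own number. With the replicate block Mup7 stood at 1.87 (adjusted p = 0.0490) in periportal cells at 24 h, and no count of members called changed.

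Another sign was given to 45 values of members that did not pass the test, of which 37 came from leaving out 1 library, and 0 of the 45 were called. By setting, limma-voom gave 0.0081 for Mup3 and -0.032 for Mup21 in periportal cells at 8 h, and 0.11 for Mup20 and -0.11 for Mup21 in the zone difference from fed to 24 h. The replicate block gave 0.0034 for Mup21 in pericentral cells at 8 h and -0.0023 for Mup21 in the zone difference from fed to 24 h. For Mup3 in periportal cells at 8 h, no filter gave 0.0027 and only the groups of the comparison gave 0.00071. Leaving out single libraries, pericentral values at 8 h ranged from -0.10 to 0.27 for Mup19 and from -0.19 to 0.11 for Mup21, and at 24 h from -0.32 to 0.65 for Mup20. Periportal values at 8 h ranged from -0.10 to 0.14 for Mup3, from -0.67 to 2.42 for Mup15, from -0.71 to 1.62 for Mup17, from -0.20 to 1.93 for Mup19, from -0.16 to 0.65 for Mup20 and from -0.32 to 0.49 for Mup21. Periportal values at 24 h ranged from -0.076 to 0.27 for Mup3, from -0.29 to 1.65 for Mup15, from -0.62 to 1.04 for Mup17, from -0.58 to 1.50 for Mup19, from -0.12 to 0.63 for Mup20 and from -0.66 to 0.14 for Mup21. The zone difference from fed to 24 h ranged from -0.36 to 0.016 for Mup3, from -0.50 to 0.46 for Mup20 and from -0.35 to 0.45 for Mup21. The cause was not tested.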
